A study of Mus musculus with 3 samples.

Results

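The genes described here are 8 members of the TGF-beta pathway, taken by name: the ligand *Tgfb1*, the anchor protein *Lrrc32*, the receptors *Tgfbr1* and *Tgfbr2*, the signal carrier *Smad3* and the inhibitors *Smad7*, *Ski* and *Skil*. They are 8 of the 32285 genes in the count tables. Their levels were compared between groups of tumor-infiltrating leukocytes (TILs) and between cells labeled by their time in the tumor.

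Tumors of MC38-Ova, a mouse colon adenocarcinoma line made to carry ovalbumin, were grown under the skin of wild-type C57BL/6 mice carrying the Kaede transgene, whose fluorescent protein turns from green to red under violet light. Each mouse received 250000 tumor cells, the tumor was photoconverted on day 13, and TILs were sorted on day 15 as live CD45+ TER119- Kaede+ cells without the CD11b+ NK1.1- (myeloid) gate. Cells that arrived during the last 48 h were Kaede Green+ (KG+) and made 2 libraries, Kaede-green 1 and Kaede-green 2, which the labels call biological replicates, and cells already present were Kaede Red+ (KR+) and made 1 library, Kaede-red. All 3 libraries came from mice given an isotype control, the labels do not say how many animals each library holds, and the single KR+ library leaves the spread among KR+ libraries unknown.

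TGF-beta is secreted in a latent form that must be released before it can bind. LRRC32, also called GARP, holds the latent ligand on the surface of regulatory T cells (Tregs). Once free, the ligand binds TGFBR2, which recruits and phosphorylates TGFBR1, and the receptor pair phosphorylates SMAD2 and SMAD3, which move to the nucleus and drive transcription together with SMAD4. SMAD7 blocks the receptor and is itself a target gene of the pathway, and SKI and SKIL (SnoN) repress transcription by binding SMADs. In natural killer (NK) cells the pathway is known to restrain cytotoxic function and to favor features of tissue-resident innate lymphoid cells.

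The deposited tables held between 10498 and 12327 cells and between 87193225 and 175848894 unique molecular identifiers (UMIs) per library, and the median cell held 6438 UMIs in Kaede-green 1, 8007 in the other KG+ library and 11079 in the KR+ library. Cells were grouped by UMIs of a few genes. NK cells had at least 1 UMI of *Ncr1* and no more than 1 of *Cd3e*, and among them 802 cells were Itgam+ (a UMI of *Itgam*, none of *Itga1*), 2150 were Itga1+ (the reverse), and 507 were ILC-like (at least 2 UMIs of *Rora*, none of *Eomes*). ILC-like cells were left out of both integrin groups. CD8 T cells (9700), Tregs (1802) and myeloid cells (151, between 27 and 87 per library) were taken from *Cd3e* with *Cd8a* and *Cd8b1*, from *Cd3e* with *Foxp3*, and from *Lyz2* with *Cst3*. UMIs were summed per library and group, and a level is given as CPM, the share of that sum held by a gene, scaled to a total of 1000000 UMIs.

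Groups were checked against markers that their rules had not used. *Il7r*, a receptor of innate lymphoid cells, stood at 44.3 to 99.1 CPM in ILC-like cells and 4.96 to 25 in Itgam+ NK cells, whereas *Gata3* (59.8 to 113 against 80.0 to 91.2 CPM) and *Tbx21* (80.8 to 94.2 against 89.8 to 93.4 CPM) overlapped between them. CD8 T cells (224 to 253 CPM) and Tregs (162 to 325 CPM) held more *Il7r*. The Treg markers *Il2ra*, *Ctla4*, *Ikzf2* and *Tnfrsf18* were also higher in ILC-like than in Itgam+ NK cells, though lower than in Tregs, and *Cd4* overlapped with Itgam+ NK cells. The macrophage receptor *Csf1r* stood at 38.7 to 259 CPM in myeloid cells and at most 1.02 in the other groups. *Adgre1* (7.26 to 47.3 against at most 0.266) and *Cd68* (189 to 475 against at most 15.5) were also higher there. *C1qa* overlapped (0 to 214 against at most 9.04). The NK marker *Klrb1c* stood at 153 to 501 CPM in the integrin groups, 135 to 172 in ILC-like and at most 22.3 in CD8 T cells. In these groups *Klre1* stood at 508 to 660, 269 to 296 and 157 to 268 CPM, and *Prf1* at 751 to 970, 220 to 323 and 263 to 698 CPM. Platelets are rich in TGF-beta, and their 5 markers summed to at most 3.06 CPM in every lymphocyte group, with *Pf4* at 0 in both integrin groups of NK cells, but reached 11 CPM in myeloid cells. Of the CD8 T cell markers that no rule used, *Cd3d* stood at 22.8 to 59.4 CPM in Itgam+ and Itga1+ NK cells and at least 1086 CPM in CD8 T cells. For *Cd3g* these values were 12.2 to 57.7 and at least 840 CPM, and for *Trac* 21.8 to 76.2 and at least 674 CPM. Below, 3 values in a row stand for the libraries in the order Kaede-green 1, Kaede-green 2, Kaede-red, and means carry the SD over these 3 libraries.

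**Figure D1:**
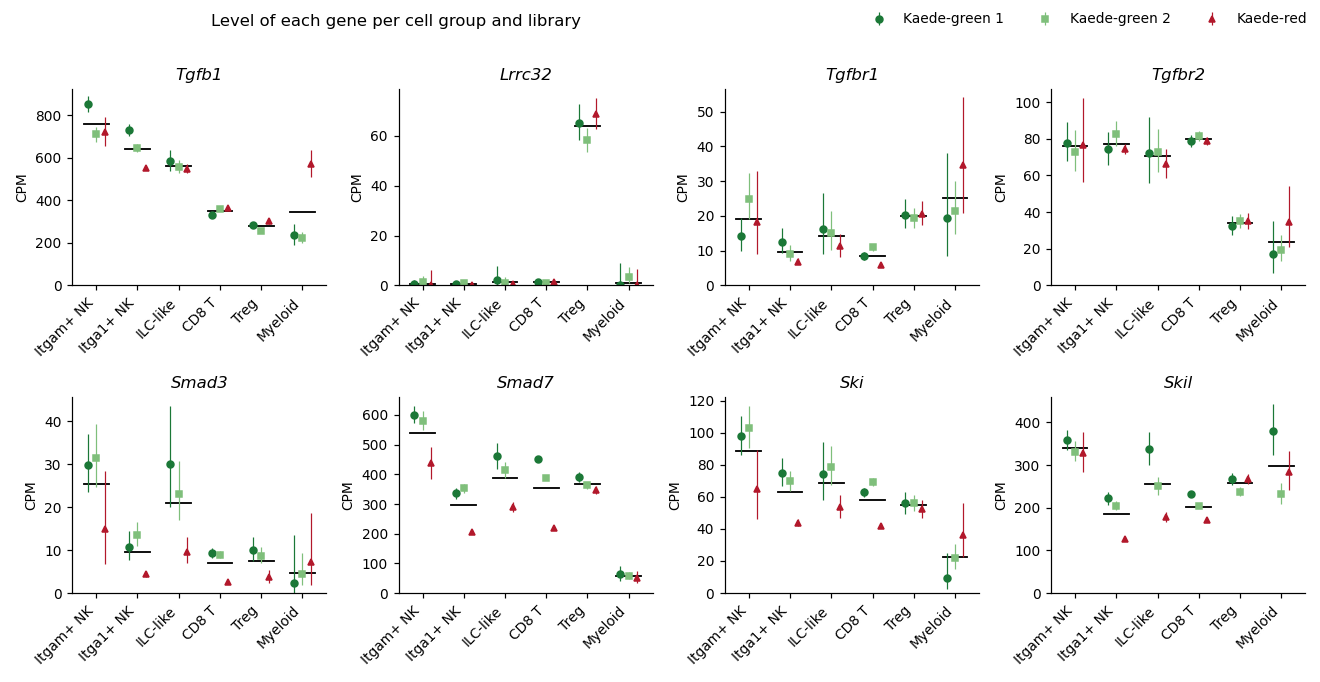
Level of the 8 genes in CPM (linear axis from 0) in 6 cell groups, with 1 point per library, vertical lines for exact Poisson 95% intervals (counting error only) and a black bar for the mean of the 3 libraries. *Lrrc32* stands out in Tregs (58.1 to 68.6 CPM), *Tgfb1* is higher in all 3 NK and ILC-like groups than in CD8 T cells and Tregs, and the Kaede-red points of *Smad3*, *Smad7* and *Ski* lie under the Kaede-green points in most lymphocyte groups.

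*Tgfb1* (chromosome 7, 25687002 to 25705077, plus strand, GRCm38), which encodes the ligand, was highest in NK cells. Itgam+ NK cells held 852, 709 and 720 CPM, Itga1+ NK cells 728, 645 and 550 CPM, and ILC-like cells 584, 558 and 548 CPM. CD8 T cells held 329, 357 and 364 CPM and Tregs 285, 257 and 301 CPM. Every NK and ILC-like value therefore lay above every CD8 T cell and Treg value, with means of 760 ± 79.3 CPM in Itgam+ NK cells, 350 ± 18.7 CPM in CD8 T cells and 281 ± 22.3 CPM in Tregs. Myeloid cells held 235, 224 and 570 CPM, so that 1 library set their mean of 343 CPM. After each cell was thinned to 2000 UMIs, a *Tgfb1* UMI was read in 71.6, 69.9 and 63.5% of Itgam+ NK cells, 38.6, 44.2 and 48.0% of CD8 T cells and 42.8, 36.3 and 39.9% of Tregs. Without thinning these shares were 90.4, 91.7 and 89.2%, 74.2, 84.2 and 90.2%, and 84.3, 81.8 and 81.1%.

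*Lrrc32* (chromosome 7, 98489283 to 98502181, plus strand) was a Treg gene in these cells. Tregs held 65.3, 58.1 and 68.6 CPM, and CD8 T cells 1.31, 1.09 and 1.21 CPM. The remaining groups rested on few UMIs: 1, 3 and 0 in Itgam+ NK cells, 2, 6 and 11 in Itga1+ NK cells, 2 in each library in ILC-like cells, and 0, 5 and 0 in myeloid cells. The 3 Treg values did not overlap with any value of the other 5 groups, whose levels could not be ordered at this depth. In thinned cells pooled over the 3 libraries, *Lrrc32* was read in 14.1% of Tregs (12.5 to 15.8%) and 0.371% of CD8 T cells (0.260 to 0.514%). It was read in 0.125% of Itgam+ NK cells (0.00316 to 0.693%), taken as the type that should lack it. These intervals count pooled cells and do not cover the spread among libraries. By library the CD8 T cell share was 0.255, 0.429 and 0.392%, and that of Itgam+ NK cells 0, 0.331 and 0%. The unthinned pooled shares were 39.2%, 1.30% and 0.499%. The pooled thinned CD8 T cell share lay inside the interval of Itgam+ NK cells but above that of Itga1+ NK cells (0.0930%, 0.0113 to 0.336%, unthinned 0.744%). Whether it exceeds background was not settled at this depth.

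The receptor genes were ordered differently across the groups. *Tgfbr1* (chromosome 4, 47353222 to 47414931, plus strand) was sparse. It stood at 14.1, 25 and 18.3 CPM in Itgam+ NK cells, 12.5, 9.04 and 6.85 in Itga1+ NK cells, and 16.2, 15.0 and 11.3 in ILC-like cells. CD8 T cells held 8.47, 11 and 5.95 CPM, Tregs 20.3, 19.3 and 20.5 CPM, and myeloid cells 19.4, 21.4 and 34.6 CPM from 8, 33 and 19 UMIs. Treg values lay above all CD8 T cell values, while neighbors in the order from myeloid cells down to CD8 T cells overlapped.

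*Tgfbr2* (chromosome 9, 116084293 to 116175360, minus strand), the receptor that binds the ligand first, formed a high and a low level. It stood at 77.9, 72.7 and 76.7 CPM in Itgam+ NK cells, 74.3, 82.7 and 74.2 in Itga1+ NK cells, 72.2, 72.9 and 66.3 in ILC-like cells, and 78.6, 81.5 and 78.9 in CD8 T cells. Tregs held 32.5, 35.0 and 35.0 CPM and myeloid cells 16.9, 19.4 and 34.6 CPM. Every value of the NK, ILC-like and CD8 T cell groups lay above every Treg and myeloid value. Within the high groups, ranges of neighbors in the order of means overlapped, whereas CD8 T cell values lay above all values of Itgam+ NK cells and ILC-like cells.

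To show the DNA ahead of the receptor genes and of *Smad3*, the 250 bases before their start are printed here from the RefSeq promoter table for GRCm38.p6. The table used here matched 5 of the 8 genes. Capitals mark GGGCGG, the GC box letters bound by SP1-type factors (on the other strand CCGCCC), and CAGAC, a SMAD-binding element (on the other strand GTCTG). Both strands were searched, and a match of one motif can share at most 1 letter with a match of the other.
*Tgfbr1*, chr4:47352972-47353221, plus strand: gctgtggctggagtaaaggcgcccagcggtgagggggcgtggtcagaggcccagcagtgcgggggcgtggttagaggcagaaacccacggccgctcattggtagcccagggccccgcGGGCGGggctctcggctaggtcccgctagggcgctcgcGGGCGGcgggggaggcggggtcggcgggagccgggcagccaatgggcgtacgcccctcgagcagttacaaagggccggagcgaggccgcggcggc
*Tgfbr2*, chr9:116175364-116175613, minus strand: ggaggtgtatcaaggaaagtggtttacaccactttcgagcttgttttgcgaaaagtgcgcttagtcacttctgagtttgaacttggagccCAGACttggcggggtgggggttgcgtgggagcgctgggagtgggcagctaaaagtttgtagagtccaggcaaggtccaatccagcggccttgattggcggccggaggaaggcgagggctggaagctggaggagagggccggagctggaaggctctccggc
*Smad3*, chr9:63757995-63758244, minus strand: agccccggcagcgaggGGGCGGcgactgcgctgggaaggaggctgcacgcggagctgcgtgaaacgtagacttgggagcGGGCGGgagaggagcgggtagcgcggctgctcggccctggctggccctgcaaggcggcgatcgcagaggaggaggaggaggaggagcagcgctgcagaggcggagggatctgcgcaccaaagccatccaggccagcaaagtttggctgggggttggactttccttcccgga
The table lists another *Tgfbr1* start inside the gene (window chr4:47385966-47386215), which held 1 CAGAC match, 0 GGGCGG matches and 52.8% G and C and is not printed. At the starts printed, the *Tgfbr1* and *Smad3* windows held 2 GGGCGG matches each and 0 CAGAC matches, at 74.8% and 69.2% G and C. The *Tgfbr2* window held 0 GGGCGG matches and 1 CAGAC match, at 58.4% G and C. Of the matched genes not printed, the *Tgfb1* and *Ski* windows held 5 GGGCGG matches each and 0 CAGAC matches, at 75.2% and 87.6% G and C. Of all 32851 promoters in the table, 32.7% held GGGCGG and 42.2% held CAGAC in a window of this length, and the median promoter was 52.4% G and C. These are matches of letters only, and a link to the levels was not tested.

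*Smad3* (chromosome 9, 63646767 to 63757994, minus strand) was read at low levels. It stood at 29.8, 31.4 and 15.0 CPM in Itgam+ NK cells, 10.7, 13.6 and 4.51 in Itga1+ NK cells, and 30.2, 23.2 and 9.61 in ILC-like cells. CD8 T cells held 9.29, 8.96 and 2.48 CPM and Tregs 9.96, 8.70 and 3.66 CPM, while myeloid cells had 1, 7 and 4 UMIs. In every library the Itgam+ and ILC-like values were above those of the other groups, but over the 3 libraries the ranges of neighbors in the order of means overlapped.

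*Smad7*, the inhibitor of the receptor, was read in most lymphocytes. It stood at 601, 581 and 437 CPM in Itgam+ NK cells, 336, 353 and 206 in Itga1+ NK cells, and 461, 413 and 290 in ILC-like cells. CD8 T cells held 452, 388 and 218 CPM, Tregs 391, 363 and 346 CPM, and myeloid cells 62.9, 58.9 and 51.0 CPM. Itgam+ NK cells were the highest group in each library and did not overlap with Itga1+ NK cells, and myeloid cells lay below every lymphocyte value. Thinned to 2000 UMIs, 65.7, 63.2 and 55.4% of Itgam+ NK cells and 50.7, 53.3 and 34.7% of Itga1+ NK cells had a *Smad7* UMI, although unthinned the shares were 90.1, 94.4 and 89.2% against 90.9, 94.99 and 94.98%.

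The genes of the SMAD repressors were also highest in Itgam+ NK cells among the NK and T cell groups. *Ski* (chromosome 4, 155154075 to 155222592, minus strand) stood at 97.8, 103 and 65.0 CPM in Itgam+ NK cells, 75.1, 69.6 and 43.8 in Itga1+ NK cells, and 74.3, 78.7 and 53.7 in ILC-like cells. CD8 T cells held 62.7, 69.3 and 41.9 CPM, Tregs 55.9, 56.0 and 52.2 CPM, and myeloid cells 9.68, 22 and 36.4 CPM. Itgam+ NK cells were again the highest in each library, with ranges that overlapped those of Itga1+, ILC-like and CD8 T cells.
*Skil* (chromosome 3, 31095058 to 31122577, plus strand) stood at 359, 332 and 329 CPM in Itgam+ NK cells, 222, 205 and 127 in Itga1+ NK cells, and 337, 250 and 178 in ILC-like cells. CD8 T cells held 233, 205 and 170 CPM, Tregs 266, 238 and 267 CPM, and myeloid cells 380, 232 and 284 CPM. The Itgam+ and Itga1+ values did not overlap, and Tregs lay between them.

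The study placed NK cells in time by Kaede color and by a trajectory computed from their transcripts. In flow cytometry it followed them by the proteins CD11b (*Itgam*) and CD49a (*Itga1*). The groups here rest on UMIs of these genes and not on protein. The next question was how the 8 genes differ between Itga1+ and Itgam+ NK cells of the same library. *Smad3*, *Tgfbr1*, *Skil*, *Smad7* and *Ski* held lower shares of UMIs in Itga1+ cells, the ligand and *Tgfbr2* did not pass the test, and *Lrrc32* was too sparse to be tested. In edgeR, *Smad3* fell by 1.29 ± 0.20 on the log2 scale (SE, 6 sums, adjusted p = 0.000236), that is 2.45-fold. *Smad7* fell by 0.79 ± 0.09 (adjusted p = 2.93e-05, 1.72-fold) and *Skil* by 0.81 ± 0.12 (adjusted p = 0.000204, 1.75-fold). *Tgfbr1* fell by 0.90 ± 0.27 (adjusted p = 0.0178) and *Ski* by 0.40 ± 0.10 (adjusted p = 0.00689). All 5 were lower in 3 of 3 libraries. *Tgfb1* differed by -0.16 ± 0.09 (adjusted p = 0.168) and *Tgfbr2* by 0.13 ± 0.11 (adjusted p = 0.393).

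Of the 7 members tested, 5 were called lower and 0 higher, where 35.5% of the 9756 genes tested were called in either direction, 18.5% higher and 17% lower. The median log2 fold change was -0.79 for the members tested and -0.01 for all genes. By unadjusted p, 4285 genes were under 0.05. The 4875 NK cells with a UMI of neither integrin lay between the integrin groups in all 3 libraries for 4 genes, *Smad3* (21.5, 20.02 and 8.0 CPM), *Smad7* (489, 446 and 287 CPM), *Ski* (80.5, 76.9 and 47.5 CPM) and *Skil* (330, 280 and 174 CPM). For *Tgfb1* they were the highest NK cells in both Kaede-green libraries, with 923 and 747 CPM, and held 612 CPM in Kaede-red. For *Tgfbr2* they lay below both integrin groups in all 3 libraries, at 64.1, 69.8 and 56.7 CPM. The share of all genes that lie between in this way was not counted. Whether these 4875 cells are a mixture of the integrin groups was not tested.

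**Figure D2:**
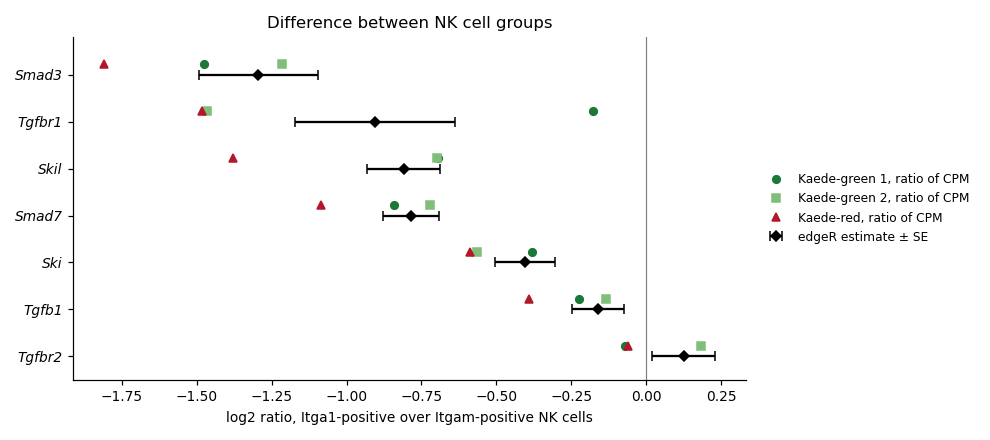
Log2 ratio of Itga1+ over Itgam+ NK cells for the 7 members tested: colored points are CPM ratios within a library, black diamonds with bars the edgeR estimate ± SE, which also applies TMM scaling factors. The points of *Smad3*, *Skil*, *Smad7*, *Ski* and *Tgfbr1* all lie left of 0, those of *Tgfbr1* spread the most (-0.18 to -1.48), and those of *Tgfbr2* lie on both sides of 0.

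The integrin groups differed in depth and in cell division. Levels are shares of the UMIs of a group, so a lower level need not mean fewer UMIs per cell. Counted per cell, *Smad7*, *Skil* and *Ski* were higher in Itga1+ than in Itgam+ NK cells in every library. *Smad3* was lower per cell in every library, and *Tgfbr1* only in Kaede-green 2. In Kaede-green 1, 296 Itga1+ NK cells held 1260 UMIs of *Smad7* and 40 of *Smad3*, and 426 Itgam+ NK cells held 1574 and 78. In Kaede-red, 1415 Itga1+ NK cells held 7555 UMIs of *Smad7* and 165 of *Smad3*, and 74 Itgam+ NK cells held 262 and 9. Itga1+ NK cells held a median of 9315, 11502 and 25056 UMIs against 5345, 6717 and 6481.5 in Itgam+ NK cells, and 23.0, 36.7 and 51.7% of them had a UMI of *Mki67* or *Top2a* against 9.86, 20.2 and 16.2%. Without these cycling cells *Smad3*, *Smad7* and *Skil* remained called, at -0.99, -0.62 and -0.61 (adjusted p = 0.00276, 0.000100 and 0.00133), and *Tgfbr1* (-0.66, adjusted p = 0.150) and *Ski* (-0.20, adjusted p = 0.268) did not. With the groups formed after thinning each cell to 2000 UMIs, which left 15 Itgam+ cells in Kaede-red, *Smad7* (-0.59, adjusted p = 0.0148) and *Skil* (-0.67, adjusted p = 0.0163) stayed called and *Smad3* (-0.81, adjusted p = 0.245) did not. Without Kaede-green 2, *Tgfbr1* (-0.52, adjusted p = 0.292) and *Ski* (-0.37, adjusted p = 0.0974) were lost, as they were in DESeq2 (adjusted p = 0.0640 and 0.0701), and *Ski* also without the library as a block (adjusted p = 0.102).

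Other genes of the pathway, from a list of 54 named by role, were mixed in the same comparison. Of 28 tested, 4 were higher and 8 lower, with a list median of -0.29. Those lower by most were *Entpd1*, the ectonucleotidase CD39 (-1.62 ± 0.18, adjusted p = 2.02e-05), the decoy receptor *Bambi* (-1.21 ± 0.19, adjusted p = 0.000299) and the BMP receptor *Bmpr2* (-0.97 ± 0.34, adjusted p = 0.0381). Those higher by most were *Ldlrad4*, an inhibitor of receptor-driven SMAD phosphorylation (0.90 ± 0.17, adjusted p = 0.00113), the integrin subunit *Itgav* (0.69 ± 0.11, adjusted p = 0.000413) and *Fkbp1a*, which binds TGFBR1 (0.46 ± 0.09, adjusted p = 0.00190).

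Between ILC-like cells, the NK-gated cells with *Rora* and without *Eomes*, and all other NK cells, the ligand gene was the 1 member that passed the test. *Tgfb1* stood at 584, 558 and 548 CPM in ILC-like cells and at 876, 720 and 575 CPM in the 7941 other NK cells, lower in 3 of 3 libraries. In edgeR it fell by 0.42 ± 0.10 on the log2 scale (adjusted p = 0.0125, 1.33-fold). The within-library log2 ratios were -0.58, -0.37 and -0.07, so that the step was small in Kaede-red. *Smad3* was higher in 3 of 3 libraries without passing the test (0.41 ± 0.17, adjusted p = 0.233), and the other 6 members differed by 0.21 or less in either direction. Of 8 members tested, 1 was called, where 5.61% of 11721 genes were called, 2.76% higher and 2.85% lower. The *Tgfb1* call did not survive leaving out Kaede-green 1 (-0.29, adjusted p = 0.301) or Kaede-green 2 (-0.40, adjusted p = 0.176), nor the fit without the library as a block (-0.42, adjusted p = 0.473).

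Of 36 pathway genes tested in ILC-like against other NK cells, 2 were higher and 2 lower. The higher pair was the ligand *Bmp7* (2.77 ± 0.35, adjusted p = 6.48e-05, 8.27 against 1.12 CPM on average) and the protease *Furin*, which cleaves the TGF-beta precursor (1.08 ± 0.11, adjusted p = 3.7e-06). The lower pair was *Entpd1* (-1.79 ± 0.27, adjusted p = 0.00037) and *Pmepa1*, a target gene and inhibitor of the pathway (-0.44 ± 0.11, adjusted p = 0.0227).

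Tregs differed from CD8 T cells in the anchor, in both receptors and in the ligand. *Lrrc32* rose by 5.62 ± 0.12 on the log2 scale in edgeR (adjusted p = 1.11e-05), that is 49.0-fold, and *Tgfbr1* by 1.16 ± 0.19 (adjusted p = 0.00649, 2.23-fold). *Tgfbr2* fell by 1.35 ± 0.09 (adjusted p = 0.000219, 2.54-fold) and *Tgfb1* by 0.44 ± 0.09 (adjusted p = 0.0146, 1.36-fold). Each direction was seen in 3 of 3 libraries. The 4 members of the SMAD arm did not pass: *Smad3* differed by 0.04 ± 0.17, *Smad7* by -0.01 ± 0.17, *Ski* by -0.18 ± 0.13 and *Skil* by 0.22 ± 0.12. Of the 8 members tested, 2 were called higher and 2 lower, where 23.4% of 12653 genes were called, 12.6% higher and 10.8% lower. The *Lrrc32*, *Tgfbr1* and *Tgfbr2* calls held in all 13 alternatives run, whereas the *Tgfb1* call was lost without Kaede-green 1 (adjusted p = 0.0852), without Kaede-green 2 (adjusted p = 0.182) and in the fit over all 6 groups (adjusted p = 0.224). Without Kaede-red, *Smad7* (-0.27, adjusted p = 0.0110) and *Ski* (-0.36, adjusted p = 0.00185) were called lower as well.

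Of 39 other pathway genes tested between Tregs and CD8 T cells, 8 were higher and 3 lower. *Itgb8*, the integrin subunit that with *Itgav* activates latent TGF-beta held by LRRC32, rose by 6.45 ± 0.21 (adjusted p = 2.78e-05, 61.3 against 0.638 CPM). *Itgae*, the CD103 integrin and a target gene of the pathway, rose by 2.89 ± 0.33 (adjusted p = 0.00166) and *Bmp7* by 1.86 ± 0.33 (adjusted p = 0.00875). The co-receptor *Tgfbr3* fell by 3.75 ± 0.46 (adjusted p = 0.00224), the deubiquitinase *Usp11* by 1.03 ± 0.20 (adjusted p = 0.0115) and *Ldlrad4* by 0.68 ± 0.12 (adjusted p = 0.00923).

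NK cells other than ILC-like cells held higher shares of UMIs of 4 members than CD8 T cells of the same library. The median NK cell held 6082, 8076 and 17513.5 UMIs and the median CD8 T cell 8955, 10516.5 and 14191. *Tgfb1* rose by 1.09 ± 0.13 in edgeR (adjusted p = 0.00310, 2.13-fold) and *Smad3* by 1.23 ± 0.11 (adjusted p = 0.00107, 2.35-fold), from 20.7, 19.3 and 5.92 CPM in NK cells against 9.29, 8.96 and 2.48 CPM. *Tgfbr1* rose by 0.58 ± 0.11 (adjusted p = 0.0150) and *Ski* by 0.29 ± 0.08 (adjusted p = 0.0382). Each was higher as a share in 3 of 3 libraries, and NK and CD8 T cell values of *Tgfb1* did not overlap across libraries. Counted per cell, *Tgfb1*, *Smad3* and *Tgfbr1* were also higher in NK cells in every library. *Ski* per cell was lower in NK cells in both Kaede-green libraries and higher in Kaede-red. *Tgfbr2* differed by -0.12 ± 0.07, *Smad7* by 0.19 ± 0.08, *Skil* by 0.25 ± 0.12 and *Lrrc32* by -0.65 ± 0.43, none called. Of 8 members 4 were called, all higher, where 28.1% of 13432 genes were called, 13.5% higher and 14.5% lower. The *Tgfb1* call held in all 13 alternatives, *Smad3* was lost without the library as a block (1.17, adjusted p = 0.285), and *Ski* was lost in 8 alternatives, leaving out either Kaede-green library among them. Of these alternatives, the fit over 6 groups used only the Itgam+ and Itga1+ NK cells. *Tgfbr1* was lost without the block (adjusted p = 0.316), without Kaede-green 1 (adjusted p = 0.0614) and without Kaede-green 2 (adjusted p = 0.0779), and *Skil* was called higher without Kaede-red (0.41, adjusted p = 0.000249).

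Of 41 other pathway genes tested in NK against CD8 T cells, 8 were higher and 6 lower. The ubiquitin ligase *Nedd4l* rose by 1.72 ± 0.14 (adjusted p = 0.00099), the latent TGF-beta binding protein *Ltbp3* by 1.67 ± 0.25 (adjusted p = 0.00635) and *Bambi* by 1.67 ± 0.21 (adjusted p = 0.00382). *Tgfbr3* fell by 3.32 ± 0.36 (adjusted p = 0.00215), *Itgae* by 2.41 ± 0.43 (adjusted p = 0.0120) and the ligand *Gdf11* by 2.09 ± 0.20 (adjusted p = 0.00158).

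Myeloid cells, of which the sort left few, differed from CD8 T cells most in *Smad7*. It fell by 2.39 ± 0.28 in edgeR (adjusted p = 0.000472, 5.26-fold), *Tgfbr2* fell by 1.63 ± 0.32 (adjusted p = 0.00635, 3.10-fold), and *Tgfbr1* rose by 1.73 ± 0.43 (adjusted p = 0.0199, 3.31-fold). Each was seen in 3 of 3 libraries, and all myeloid values of *Smad7* and *Tgfbr2* lay below those of CD8 T cells. *Skil* (0.70 ± 0.24, adjusted p = 0.0734) and *Ski* (-1.20 ± 0.43, adjusted p = 0.0840) did not pass, nor did *Tgfb1* (-0.01 ± 0.31), *Smad3* or *Lrrc32*. Of 8 members 1 was called higher and 2 lower, where 22.3% of 12241 genes were called, 12.7% higher and 9.62% lower, and the median gene stood at -0.23. The *Smad7* call held in all 13 alternatives, and without Kaede-green 2, which holds 87 of the 151 cells, *Tgfbr2* (-1.47, adjusted p = 0.0899) and *Tgfbr1* (2.09, adjusted p = 0.0522) were no longer called. *Tgfbr1* was also lost with rules on thinned cells (1.201, adjusted p = 0.302), which left 3, 17 and 20 myeloid cells, and without cycling cells (1.63, adjusted p = 0.0724). Without Kaede-red, *Tgfb1* (-0.43, adjusted p = 0.0121) and *Ski* (-1.70, adjusted p = 3.27e-09) were called lower and *Skil* higher (0.59, adjusted p = 0.000253).

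Of 41 other pathway genes tested in myeloid cells, 10 were higher and 2 lower. The activator of latent TGF-beta *Thbs1* averaged 458 CPM against 0.0726 CPM in CD8 T cells (10.93 ± 2.45, adjusted p = 0.0163), the target gene *Tgfbi* 577 against 1.36 CPM (8.54 ± 1.06, adjusted p = 0.000658) and the receptor *Acvrl1* 62.8 against 0.566 CPM (7.30 ± 0.72, adjusted p = 0.000214). *Ldlrad4* fell by 1.90 ± 0.42 (adjusted p = 0.0125) and *Itgav* by 1.67 ± 0.32 (adjusted p = 0.00607). The Treg, NK and myeloid comparisons share the CD8 T cell sums and are therefore not independent of each other.

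**Figure D3:**
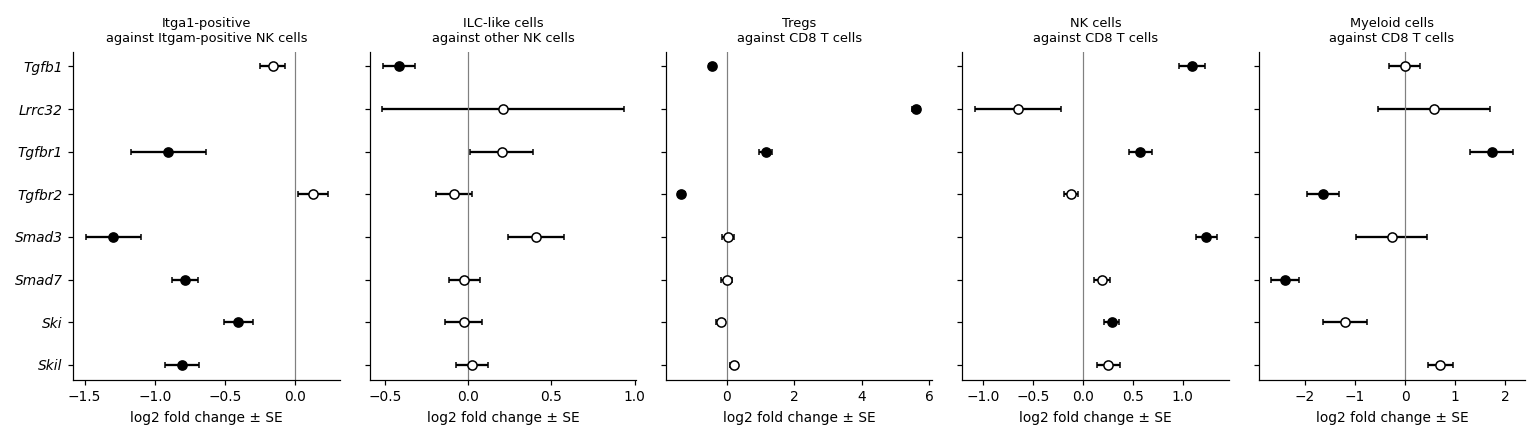
EdgeR log2 fold change ± SE of the 8 members in 5 comparisons (each panel has its own linear axis), with filled points for an adjusted p under 0.05 and open points otherwise. Filled points of the SMAD genes lie left of 0 between the integrin groups of NK cells, *Lrrc32* lies far right in Tregs (5.62), and *Smad7* far left in myeloid cells (-2.39).

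The last comparison was between colors within each cell group, that is between cells that had been in the tumor for at least 48 h and those that arrived later. No test was made, since the spread among KR+ libraries is unknown with 1 library, and a value was counted as past the Kaede-green step where Kaede-red lay beyond both Kaede-green libraries and its step to the nearer was larger than the step between them. The rule does not weigh counting error, so a value past the step can have counting intervals that overlap between colors. Of 43 values with over 3 UMIs in each library, 25 were past this step, 22 lower and 3 higher in Kaede-red, and the 3 higher values were all in myeloid cells. The members past it were 3 of 7 in Itgam+ NK cells, 5 of 7 in Itga1+ NK cells, 6 of 7 in ILC-like cells, 5 of 8 in CD8 T cells, 2 of 8 in Tregs and 4 of 6 in myeloid cells. Among all genes with at least 10 CPM the share past the step was 53.7%, 51.9%, 35.6%, 52.3%, 42.8% and 54.6% in these groups, so a value past it is common. The shares lower in Kaede-red were 34.2, 35.3, 22.8, 25.6, 19.9 and 32.4%, and the shares higher 19.5, 16.6, 12.8, 26.7, 22.9 and 22.1%. The median Kaede-red cell held more UMIs than those of both Kaede-green libraries in Itga1+ NK cells (25056), ILC-like cells (14660) and CD8 T cells (14191), fewer in Tregs (7139) and myeloid cells (13197), and a number between them in Itgam+ NK cells, and the part of depth was not tested.

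*Smad3* was lower in Kaede-red in each of the 5 lymphocyte groups. The log2 ratio of Kaede-red to the mean of the Kaede-green libraries was -0.96 in Itgam+ NK cells, -1.42 in Itga1+ NK cells, -1.46 in ILC-like cells, -1.88 in CD8 T cells and -1.33 in Tregs. The step between the Kaede-green libraries was at most 0.39 in size in these groups, and the median gene stood between -0.10 and 0.03. In Itgam+ NK cells the Kaede-red value rested on 9 UMIs. Its counting interval (6.86 to 28.5 CPM) overlapped those of Kaede-green 1 (23.5 to 37.2) and Kaede-green 2 (24.6 to 39.5). In the other lymphocyte groups the *Smad3* intervals did not overlap between colors.

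As shares of UMIs, *Smad7* and *Ski* were lower in Kaede-red in NK, ILC-like and CD8 T cells and nearly level in Tregs. Counted per cell, both were lower in Kaede-red than in each Kaede-green library in Itgam+ NK cells, CD8 T cells and Tregs. This was not so in Itga1+ NK cells or ILC-like cells. The 705 Kaede-red Tregs held 2461 UMIs of *Smad7*, and the 388 and 709 Kaede-green Tregs held 1921 and 3462. For *Smad7* the log2 ratio was -0.43 in Itgam+ NK cells, -0.74 in Itga1+ NK cells, -0.59 in ILC-like cells, -0.94 in CD8 T cells and -0.12 in Tregs, the last not past the step. For *Ski* it was -0.61, -0.73, -0.51, -0.66 and -0.10. The Treg value of *Ski* was past the step, but the step between the Kaede-green libraries was only 0.00088. Counting intervals of *Ski* overlapped between Kaede-red and both Kaede-green libraries in Tregs. They also overlapped between Kaede-red and Kaede-green 1 in Itgam+ NK and ILC-like cells. *Skil* was lower in Itga1+ NK cells (-0.75), ILC-like cells (-0.71, but 0.0101 with rules on thinned cells) and CD8 T cells (-0.36), and not past the step in Itgam+ NK cells (-0.07) or Tregs (0.08). The rules on thinned cells left 16, 31 and 23 ILC-like cells. Counted per cell, *Skil* was not lower in Kaede-red in Itga1+ NK cells or CD8 T cells.

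The ligand and the receptors were past the step in fewer lymphocyte groups than *Smad3*, *Smad7*, *Ski* and *Skil*. *Tgfb1* was lower as a share of UMIs in Kaede-red Itga1+ NK cells (-0.32) and past the step in no other lymphocyte group. As a share of UMIs, *Tgfbr1* was lower in CD8 T cells (-0.70) and in ILC-like cells (-0.49, but 0.66 with rules on thinned cells). At -0.64 in Itga1+ NK cells it was not past the step. Counted per cell, *Tgfbr1* in CD8 T cells and in ILC-like cells was not below both Kaede-green libraries. *Tgfbr2* was lower as a share of UMIs in ILC-like cells by 0.13 on the log2 scale, where the step between the Kaede-green libraries was 0.009. Counted per cell, *Tgfbr2* was higher there in Kaede-red, with 283 UMIs in 252 cells against 67 in 94 and 151 in 161. In ILC-like cells the counting intervals of *Tgfbr1* and *Tgfbr2* overlapped between colors, for *Tgfbr2* at 55.9 to 91.7, 61.8 to 85.5 and 58.8 to 74.5 CPM. *Lrrc32* in Tregs, at 65.3, 58.1 and 68.6 CPM, was not past the step (0.16). In myeloid cells *Tgfb1* (1.31), *Tgfbr1* (0.75, but -0.22 with rules on thinned cells) and *Tgfbr2* (0.91) were higher in Kaede-red and *Smad7* lower (-0.25), from 37 Kaede-red cells. The rules on thinned cells left 3, 17 and 20 myeloid cells. The counting intervals of *Tgfbr1*, *Tgfbr2* and *Smad7* overlapped there between Kaede-red and each Kaede-green library, and those of *Tgfb1* did not. The myeloid markers differed between these libraries too, with *Lyz2* at 748, 1902 and 11811 CPM, *Cst3* at 15193, 14092 and 5527 CPM (both used by the rule), *Csf1r* at 38.7, 77.0 and 259 CPM and *C1qa* at 0, 214 and 72.8 CPM, while the summed platelet markers stood at 0, 11 and 3.64 CPM. The part of this make-up in the myeloid values was not tested.

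**Figure D4:**
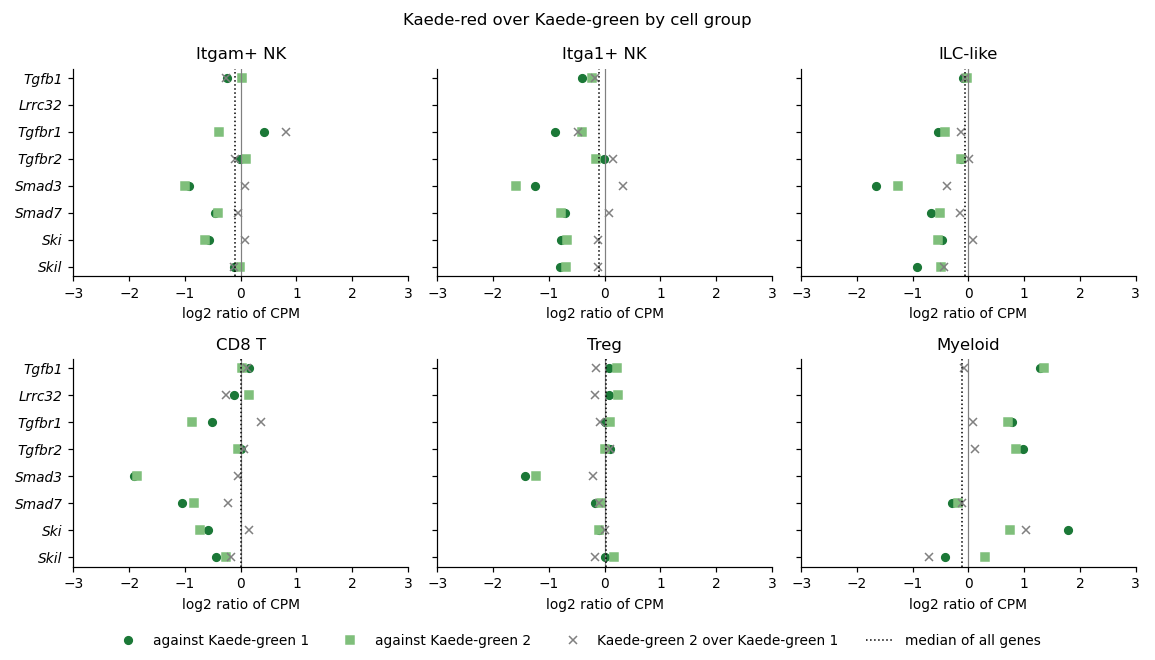
Log2 ratio of CPM for Kaede-red over each Kaede-green library (green points) in 6 cell groups, with crosses for Kaede-green 2 over Kaede-green 1 and a dotted line for the median of all genes with at least 10 CPM. Values with 3 or fewer UMIs in a library are left out. *Smad3* lies left of its cross in all 5 lymphocyte groups (-0.96 to -1.88 on average), and in Tregs the other members sit near 0.

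The genes whose levels ran most like a member over the 18 sums (6 groups in 3 libraries) were ranked by Pearson's r of log2(CPM + 1) among 7103 genes with a mean of at least 10 CPM. The sums share libraries and parts of the cell grouping, so r is a description. *Lrrc32* ran with *Itgb8* (r = 0.96), *Cd4* (0.95) and *Izumo1r* (0.94), the folate receptor 4 of Tregs, and *Tgfb1* ran with *Hes1* (0.95), *Mgat4a* (0.95) and *Clcf1* (0.95). *Smad7* ran with *Gimap6* (0.99), *Tecpr1* (0.98) and *Gimap9* (0.98), and *Smad3* with the chemokine receptor *Cxcr4* (0.92), *Slc38a2* (0.90) and *Nfkb1* (0.90). *Tgfbr1* was nearest to *Sdc4* (0.88), *Tgfbr2* to *Apol7e* (0.96), *Ski* to *Bcl9l* (0.96) and *Skil* to the phosphatase *Dusp5* (0.92).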

How the data were processed

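Tables of UMI counts (genes by cell barcodes) were deposited for 2 Kaede-green libraries and 1 Kaede-red library. The authors made them from 3' single-cell libraries, with barcodes filtered to cells and the counts left without normalization. The submitters' processing notes name Cell Ranger 6.1.2 and mm10, whereas the table headers name version 6.0.1. The table columns were all mapped to a library. The labels name MC38-Ova cells and an isotype control, and the published text names MC38.

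A cell was kept if it had 1000 to 6000 genes and its mitochondrial share was under 7.5% (10000, 11078 and 10865 cells). NK cells had at least 1 UMI of *Ncr1* and at most 1 of *Cd3e*. CD8 T cells had at least 2 UMIs of *Cd3e* and 1 each of *Cd8a* and *Cd8b1*. Tregs had at least 2 UMIs of *Cd3e* and 1 of *Foxp3*. Myeloid cells had at least 5 UMIs of *Lyz2* and 3 of *Cst3* and at most 1 of *Cd3e*. ILC-like cells were left out of the other NK cell groups. NK cells with both integrins (119) were left out of the Itgam+ and Itga1+ groups only. Cells in 2 classes (478) were left out of all groups, no doublet caller was run, and stricter rules were an alternative. The libraries shared 20 to 36 cell barcodes in pairs.

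UMIs were summed per library and group and tested with edgeR 4.0.16 in R 4.3.3 (quasi-likelihood, TMM factors, filterByExpr, Benjamini-Hochberg adjustment over all genes tested, threshold 0.05). The model held the library as a block, since each library gives a sum to both groups. The SE printed with an edgeR estimate was derived as the size of the log2 change divided by the square root of its F statistic. Since both groups come from the same libraries, p-values measure the spread of their difference over 3 libraries only. Genes that define the groups were left out of counts of called genes. Alternatives were RLE factors, DESeq2 1.42.0, no filter, no block, leaving out each library, all barcodes, cells of 2 groups kept, rules on cells thinned to 2000 UMIs, no cycling cells, stricter rules and 1 fit over 6 groups. In the fit over 6 groups the mean of the Itgam+ and Itga1+ groups stood for the NK cells compared with CD8 T cells or ILC-like cells. NK cells with neither integrin were not in that fit. The script was tested on simulated data. Between colors, levels were compared as log2 CPM ratios, after adding 0.5 to every sum. Intervals (exact, 95%) cover counting error only. Coordinates are from GENCODE M21 (GRCm38), which held 32158 of the 32285 gene identifiers, and overlap no other gene for the members printed.

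The members and lists were chosen with earlier results of these data known. In each comparison all 8 members are named, and of the 54 other pathway genes at most 3 called each way with the largest log2 change. For each member the genes with the highest correlation are named.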

Additional observations from a re-analysis of the deposited data

Results flagged for a closer look

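For 6 results, levels as shares of UMIs moved one way in both Kaede-green libraries and the other way in Kaede-red. This difference between colors was not tested. The values are log2 ratios of CPM within a library. *Smad7* in ILC-like against other NK cells stood at 0.28 in Kaede-red and at -0.04 and -0.07 in Kaede-green 1 and Kaede-green 2. Counted per cell, *Smad7* was higher in ILC-like cells in every library. In Tregs against CD8 T cells, *Smad7* stood at 0.67 in Kaede-red and at -0.21 and -0.09 in the Kaede-green libraries, and *Ski* at 0.32 against -0.16 and -0.31. The median Kaede-red Treg held 7139 UMIs and the median Kaede-red CD8 T cell 14191. Counted per cell, *Smad7* and *Ski* were lower in Tregs than in CD8 T cells in every library. *Skil* in NK against CD8 T cells stood at -0.22 in Kaede-red and at 0.42 and 0.37 in the Kaede-green libraries. Counted per cell, *Skil* was lower in NK than in CD8 T cells in both Kaede-green libraries and higher in Kaede-red. In myeloid against CD8 T cells, *Tgfb1* stood at 0.65 in Kaede-red and at -0.48 and -0.67 in the Kaede-green libraries. *Smad3* there stood at 1.72 against -1.36 and -0.89, with a smallest sum of 1 UMI. No group holds the 4 samples needed to look for a single library far from the rest.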

How the results depend on the processing

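Over 13 alternatives, the calls of *Smad7* and *Skil* between the integrin groups, of *Lrrc32*, *Tgfbr1* and *Tgfbr2* in Tregs, of *Tgfb1* in NK cells and of *Smad7* in myeloid cells were kept in all. The member and setting pairs of the tested comparisons numbered 411 with the same direction and side of the threshold, 34 that lost the call, 17 that gained it and 42 that changed sign, and no called member changed sign. Where a count moved, the cause was not tested. Depth limits *Lrrc32* outside Tregs, at 0 to 11 UMIs per sum of Itgam+, Itga1+ and ILC-like cells, and the myeloid sums.

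Between Itga1+ and Itgam+ NK cells, 5 members were called, 3 under DESeq2, 2 with rules on thinned cells, 3 without cycling cells and 3 to 5 when a library was left out. With all barcodes 6 members and 3853 genes were called. All genes called numbered 3463, 2007 under DESeq2, 754 on thinned cells and 1991 without cycling cells. *Tgfb1* changed sign on thinned cells (0.10) and without cycling cells (0.0248).

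The library block (pairing) mattered most for NK cells. Without the block 0 members and 100 genes were called in ILC-like cells instead of 1 and 658, and 1 member and 1678 genes in NK against CD8 T cells instead of 4 and 3772. Between the integrin groups 4 members and 2489 genes were called without it. The blocked fit is the one reported, as both groups of a pair are cells of the same library.

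For ILC-like cells the count of members was 2 on thinned cells, 0 in the fit over 6 groups and 0 to 1 when a library was left out, and all genes called were 275, 425 and 431 to 986. Signs changed there for *Tgfbr2* (0.36), *Smad7* (0.33) on thinned cells, for *Smad7* with all barcodes (0.00911) and without cycling cells (0.13), for *Lrrc32* (-0.31) and *Ski* (0.00999) under stricter rules, for *Skil* without a filter (-0.0120) and in the fit over 6 groups (-0.0252), and when a library was left out, with ranges of -0.22 to 0.18 for *Lrrc32*, -0.00843 to 0.37 for *Tgfbr1*, -0.10 to 0.0430 for *Smad7*, -0.0846 to 0.0594 for *Ski* and -0.0344 to 0.12 for *Skil*.

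In Tregs the genes called numbered 2962 and ranged from 1617 to 4680 when a library was left out. *Smad3* changed sign without the block (-0.0100), on thinned cells (-0.38) and when a library was left out (-0.0942 to 0.17). *Smad7* changed sign with RLE factors (0.00129), in DESeq2 (0.00117), with overlapping cells kept (0.0239), on thinned cells (0.31), under stricter rules (0.0331) and when a library was left out (-0.27 to 0.18), and *Ski* on thinned cells (0.17). In NK against CD8 T cells, 2 to 5 members and 2359 to 5435 genes were called when a library was left out.

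In myeloid against CD8 T cells, 1 to 6 members and 1342 to 4184 genes were called when a library was left out, and 5 members and 5032 genes in the fit over 6 groups, against 3 and 2732. *Tgfb1* changed sign with RLE factors (0.0149), in DESeq2 (0.0142), without the block (0.18), with all barcodes (0.00459), with overlapping cells kept (0.10), on thinned cells (0.22), under stricter rules (0.13), in the fit over 6 groups (0.13) and when a library was left out (-0.43 to 0.25). *Lrrc32* changed sign with overlapping cells kept (-0.69) and when a library was left out (-7.91 to 1.205), and *Smad3* on thinned cells (0.65) and when a library was left out (-1.004 to 0.28). Between colors, the sign changed on thinned cells for *Lrrc32* in Itga1+ NK cells (0.74), *Tgfbr1* in ILC-like cells (0.66), *Tgfbr1* in myeloid cells (-0.22) and *Skil* in ILC-like cells (0.0101). Rules on thinned cells left 16, 31 and 23 ILC-like cells and 3, 17 and 20 myeloid cells.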
